A study of Mus musculus with 4 samples.

Results

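The proteasome genes described here are the 49 of 23284 gene rows whose symbol begins with Psma, Psmb, Psmc, Psmd, Psme, Psmf or Psmg followed by a digit. They comprise 48 genes for subunits, activators, an inhibitor and assembly chaperones, and Psmc3ip, which shares the symbol pattern but encodes a partner of meiotic recombination and is no subunit. RNA was sequenced from leukemic cells with high surface c-Kit of C57BL/6 mice with MLL leukemia. 2 libraries came from Msi2 -/- mice and 2 from Msi2 flox/flox controls, 1 mouse a library, and the comparison asks how proteasome transcripts differ when Msi2, an RNA-binding protein, is lost. The MLL fusion, the deleted exons, the Cre driver and the ages of the mice were not given in the sources used here. The controls are therefore known only as carriers of the floxed allele.

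The proteasome is the main machine by which cells destroy ubiquitin-tagged proteins. Its core particle is a barrel of alpha and beta rings in which a few beta subunits cut proteins, and its regulatory cap recognises, unfolds and feeds in the substrates. In blood cells, and more so under interferon, inducible catalytic subunits replace the standard ones and change which peptides are made for antigen presentation.

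The libraries held 79845492 and 72273679 gene counts in controls 1 and 2, and 87564774 and 78659396 in Msi2 -/- replicates 1 and 2. Levels are given as CPM, counts scaled by library size, and 3 counts, the limit that a count of 0 allows, equal 0.0343 to 0.0412 CPM. Msi2 stood at 34.6 and 48.9 CPM in control mice and at 0.0915 and 0.221 CPM in Msi2 -/- mice. The libraries differed in other ways too: Xist was at 1455 and 654 CPM in control mice and at 0.469 and 0.624 CPM in Msi2 -/- mice, and the summed Y-linked genes were at 41.1, 184, 224 and 242 CPM in the same order. The 5 progenitor markers (Kit, Ptprc, Hoxa9, Meis1, Myb) summed to 1240 and 1190 CPM in control mice and 1052 and 1102 CPM without Msi2. Of these, DESeq2 called Myb lower (log2 fold change -0.39, adjusted p = 0.0417). Kit was higher in both Msi2 -/- mice but was not called (log2 fold change 0.29, DESeq2 adjusted p = 0.253). The 8 late neutrophil markers summed to 1024 and 677 CPM against 1397 and 2225 CPM, and the 6 monocyte and macrophage markers found to 247 and 342 CPM against 133 and 484 CPM. The neutrophil list was split: DESeq2 called Ltf, Lcn2, S100a8 and S100a9 higher and Cxcr2 lower (log2 fold change -1.63, adjusted p = 0.0319), and S100a8, S100a9 and Ngp made up most of the sum. The monocyte and macrophage list was split too. DESeq2 called Csf1r higher (log2 fold change 1.19, adjusted p = 0.00933) and Irf8 lower (log2 fold change -2.14, adjusted p = 5.76e-05). Cd14 (log2 fold change 0.78, DESeq2 adjusted p = 0.0515), Ccr2, Emr1 and F13a1 were not called. Ccr2 was the largest part of that sum in both controls and in Msi2 -/- replicate 2. The 4 B cell markers summed to 26.7 CPM in each control and to 20.9 and 18.7 CPM without Msi2. Nearly all of that was Cd79b, which DESeq2 called lower (log2 fold change -0.43, adjusted p = 0.0389), while Ms4a1 was at 0 in all libraries. T cell markers summed to at most 0.183 CPM, with Cd3e, Cd3g and Cd8a at 0 in all libraries, and the sums of NK cell, erythroid and dendritic markers were at most 1.47, 0.302 and 5.86 CPM. The part of these differences in the proteasome values was not tested. Both control libraries held Xist (1455 and 654 CPM) together with Y-linked RNA (41.1 and 184 CPM). Whether a library taken from 1 mouse mixed cells of female and male origin was not given in the sources used here. Xist was lower and the Y-linked sum higher in both Msi2 -/- libraries, so their part cannot be told apart from that of Msi2 loss. In bulk RNA, fewer cells of a type and less RNA per cell cannot be told apart.

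Proteasome transcripts differed little between the groups. All 49 genes passed the filter on low counts. Their log2 fold changes (Msi2 -/- minus control) had a median of 0.06, with 34 above 0 and 15 below, beside a median of -0.00 over all 13215 genes tested and 0.02 over the 6412 of them whose mean log2 CPM reached 5. Of the 49 genes, 44 (89.8%) had a log2 fold change within 0.2 of 0, against 54.3% of all tested genes and 71.1% of those 6412. The 6412 genes were not matched to the members in level, and the part of level in these shares was not tested. The 95% interval of the fold change lay within 1.5-fold either way for 44 of the 48 proteasome genes, the exceptions being Psma8, Psmb11, Psmb5 and Psmb9.

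The quasi-likelihood test of edgeR called 0.00757% of all tested genes and no member after adjustment at 0.05, the smallest adjusted p of a member being 0.33. At an unadjusted p under 0.05, 2 members were higher (Psmb5, Psmd13), where 6.69% of all genes were, and 1 was lower (Psme4), where 6.17% were. DESeq2 called the same 2 genes higher and no member lower, against 3.10% and 2.71% of all genes. Both mice without Msi2 lay above both controls for 20 of the 49 members. The same held for 23.7% of all genes and for 1962 of the 6412 genes whose mean log2 CPM reached 5. They lay below both controls for 7 members, for 24.6% of all genes and for 1346 of those 6412. Msi2 -/- replicate 1 was above both controls for 33 of the 48 proteasome genes and replicate 2 for 21, so the small excess of positive values was larger in replicate 1. The members held 0.7785% and 0.7748% of gene counts in the controls and 0.8141% and 0.7718% in the Msi2 -/- libraries.

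**Figure D1:**
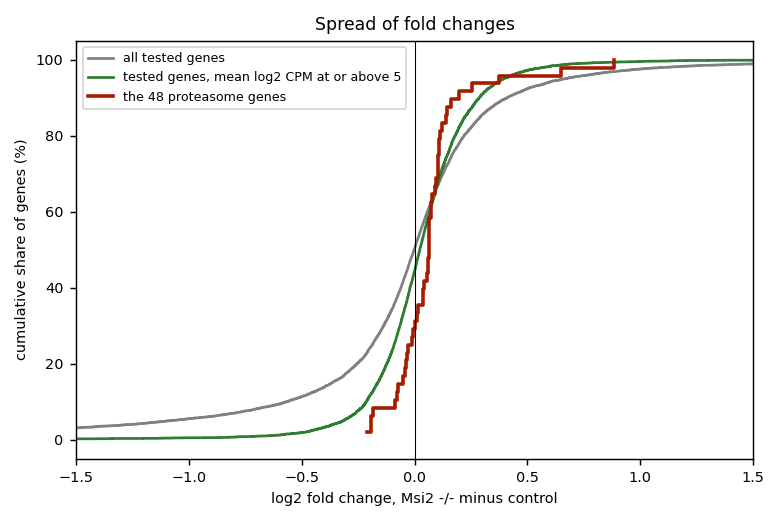
Cumulative share of genes (vertical axis, percent) by log2 fold change, Msi2 -/- minus control (horizontal axis, cropped at 1.5 either way), for all 13215 tested genes, the 6412 whose mean log2 CPM reached 5 and the 48 proteasome genes. The proteasome curve is the steepest, with a median of 0.06.

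**Figure D2:**
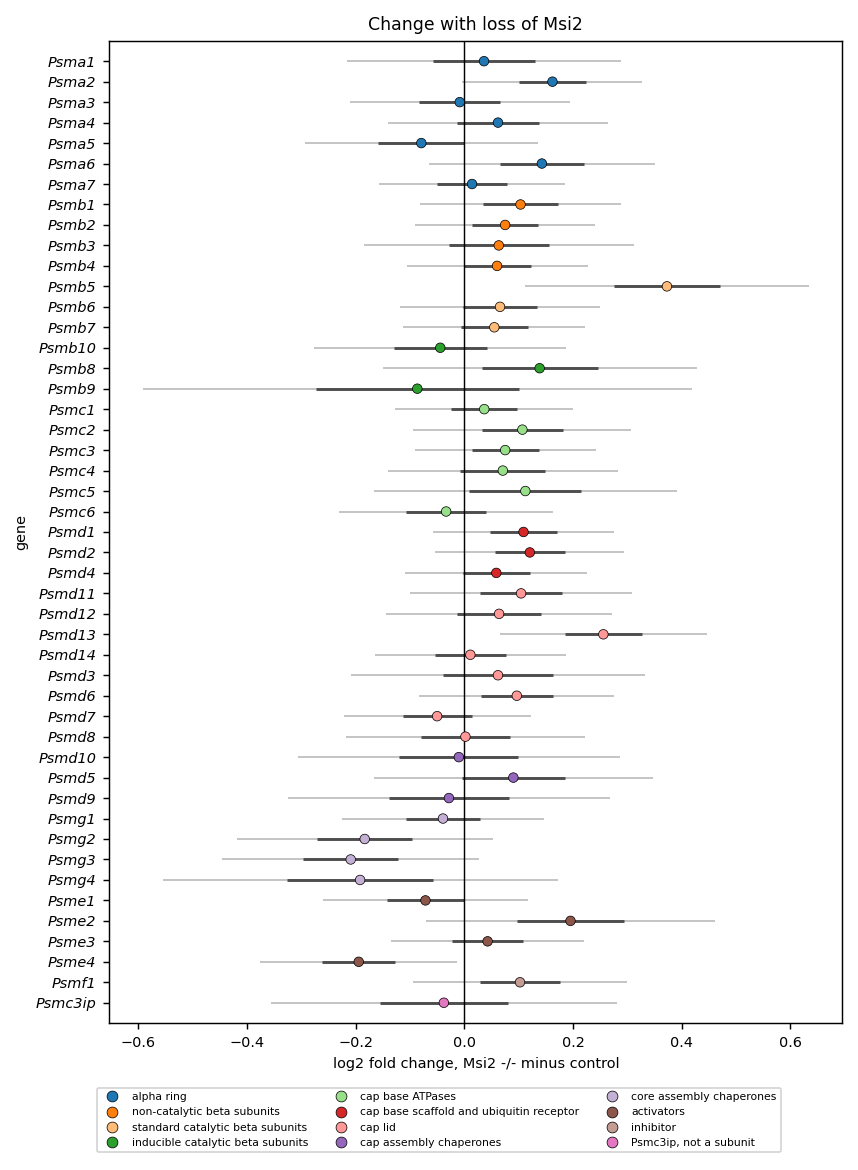
Log2 fold change of each member, Msi2 -/- minus control (point), with its standard error (dark bar) and 95% interval (pale bar), coloured by role and without Psma8 and Psmb11. Psmb5 (0.37) and Psmd13 (0.26) lie farthest to the right, and the core assembly chaperones Psmg2, Psmg3 and Psmg4 lie to the left at -0.18, -0.21 and -0.19.

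The catalytic subunit Psmb5, which carries the chymotrypsin-like activity and is the main target of bortezomib, had the highest fold change among the broadly expressed members. It stood at 103 and 117 CPM in control mice and at 137 and 148 CPM in Msi2 -/- mice. Both knock-out mice were above both controls. Its log2 fold change was 0.37 (SE 0.0967, 95% interval 0.11 to 0.63, n = 2 mice a group), with an adjusted p of 0.33 by edgeR and 0.04 by DESeq2. Whichever library was left out, DESeq2's log2 fold change stayed between 0.29 and 0.48, but with 1 library in an arm its call was lost (adjusted p from 0.12 to 0.544). The other standard catalytic subunits moved less. Psmb6, with the caspase-like activity, had 156 and 158 CPM in control mice and 169 and 159 CPM without Msi2 (log2 fold change 0.07). Psmb7, with the trypsin-like activity, had 181 and 180 CPM against 190 and 184 CPM (0.06). For both genes the knock-out values lay just above the controls.

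Psmb5, Psmb6, Psmb8 and Psmd13 are shown by 60 bases of promoter each, from RefSeq's GRCm38.p6 table. Psmb5 and Psmd13 were the members DESeq2 called. Psmb6 and Psmb8 are, in turn, a fellow catalytic subunit and the inducible counterpart of Psmb5, and both had a match to a searched motif. For Psmb7, the other standard catalytic subunit, no match was found and no stretch is shown. Positions count from the transcript start, negative upstream. Capitals mark TGACNNNGC, the core of the antioxidant response element bound by Nfe2l1 and Nfe2l2, in Psmb5 and Psmb6, and TTCNNNGAA, the gamma activated site of interferon-induced promoters, in Psmb8. In Psmd13 the stretch shown holds no motif that was searched.
Psmb5, from -72 to -13: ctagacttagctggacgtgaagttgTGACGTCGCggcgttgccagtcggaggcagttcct
Psmb6, from -60 to -1: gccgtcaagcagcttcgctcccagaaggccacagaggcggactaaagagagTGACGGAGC
Psmb8, from -122 to -63: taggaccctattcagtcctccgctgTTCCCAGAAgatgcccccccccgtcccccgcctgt
Psmd13, from -60 to -1: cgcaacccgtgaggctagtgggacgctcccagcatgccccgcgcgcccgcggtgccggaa

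Windows of 250 bases before to 50 after the start were matched for 40 of the 48 genes and searched on both strands. TGACNNNGC was in 6 of the 40 (15%) and in 14.0% of all 27025 gene windows. The 6 were Psmb5, Psmb6, Psmc6, Psmd9, Psmd12 and Psme4, of which Psmc6, Psmd9 and Psme4 had fold changes below 0. GAAANNGAA, the core of the interferon response element, was in 7 (17.5%) against 9.76%, TTCNNNGAA in 3 (7.5%) against 9.55%, and CCAAT, bound by the NF-Y factors, in 14 (35.0%) against 41.1%. A match is a description of the letters and no evidence of binding. The differences between these shares were not tested.

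The inducible catalytic subunits replace the standard ones in the immunoproteasome. Psmb8, which takes the place of Psmb5, stood at 165 and 195 CPM in control mice and at 203 and 193 CPM without Msi2 (log2 fold change 0.14, SE 0.107). Psmb9, the counterpart of Psmb6, had 31.9 and 39.5 CPM against 29.3 and 37.9 CPM (-0.09, SE 0.187). The groups overlapped for both. Psmb10, the counterpart of Psmb7, had 40.2 and 40.2 CPM against 38.5 and 39.5 CPM (-0.04, SE 0.0858), the knock-out values just below the controls. Within a library, the log2 ratio of Psmb8 to Psmb5 was 0.68 and 0.74 in the controls and 0.57 and 0.38 without Msi2. That ratio was lower in both knock-out mice, by a mean of -0.23, with an exact two-sided permutation p of 0.33, the smallest that 2 against 2 mice can give. The log2 ratio of Psmb10 to Psmb7 was -2.17 and -2.16 against -2.30 and -2.22 (exact permutation p = 0.33). The log2 ratio of Psmb9 to Psmb6 was -2.29 and -1.999 against -2.53 and -2.07, with overlapping groups (exact permutation p = 0.667).

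**Figure D3:**
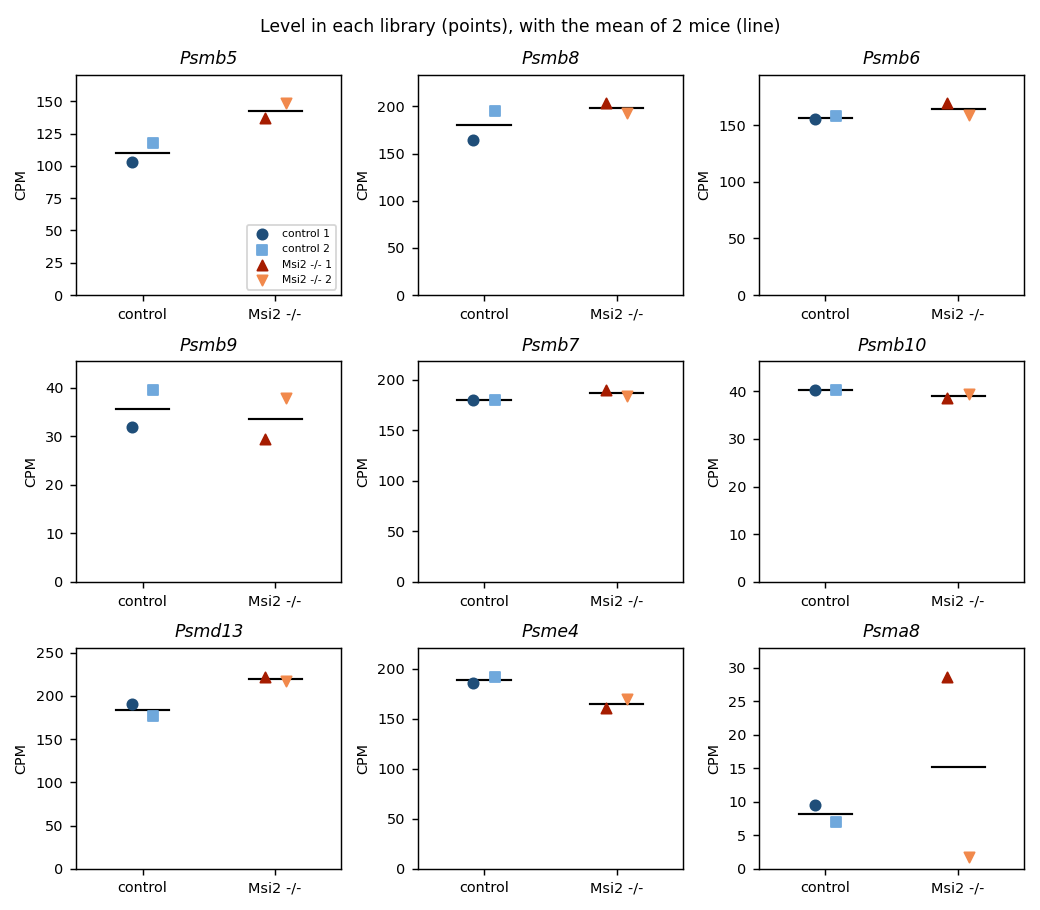
CPM (vertical axes, from 0) of 9 members in the 2 control and 2 Msi2 -/- libraries, each point 1 mouse and each line the mean of 2 mice; no error bar is drawn because both values of a group are shown. Psmb5 and Psmd13 were higher and Psme4 lower in both knock-out mice, and the Psma8 points of the knock-out mice, 28.6 and 1.75 CPM, lie on either side of the controls.

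Psma8, the alpha subunit of the testis proteasome, was the member that varied most between mice. It had 9.49 and 6.94 CPM in the controls, 28.6 CPM in Msi2 -/- replicate 1 and 1.75 CPM in replicate 2. The knock-out mice thus differed 16.3-fold from each other and the controls 1.37-fold. The log2 fold change was 0.89 with an SE of 1.24. It was -2.22 without Msi2 -/- replicate 1 and 1.80 without replicate 2, so 1 mouse set its direction. DESeq2 gave adjusted p of 1.4e-05 and 2.1e-07 in these fits, in opposite directions, with the lone knock-out library assumed to vary like the controls. The monocyte and macrophage marker sums above fall in the reverse order of Psma8 over the 4 libraries. Within that list Ccr2 and Emr1 had this order, and Csf1r, Cd14, F13a1 and Irf8 did not. Cd14 was highest, at 70.1 CPM, in Msi2 -/- replicate 1, where Psma8 was highest too. The part of such cells in the Psma8 values was not tested. The longest run of bases that Psma8 shared with Psma7, its widely expressed relative, was 17. Psma7 itself stood at 236 CPM in both controls and at 234 and 243 CPM without Msi2.

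Psmb11, the catalytic subunit of the thymus cortex, was barely detected, at 10 and 11 reads in the controls and 14 and 21 reads without Msi2. That is 0.123 and 0.151 CPM against 0.16 and 0.273 CPM, a log2 fold change of 0.65 with an SE of 0.555.

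The alpha ring gates the entrance of the core. Psma2 had 234 and 230 CPM in control mice and 259 and 261 CPM in Msi2 -/- mice (log2 fold change 0.16, edgeR unadjusted p = 0.0531, adjusted p = 0.395). Psma6 had 254 and 257 CPM against 268 and 295 CPM (0.14). The knock-out mice were above the controls for both. The other alpha subunits lay between -0.08 for Psma5 and 0.06 for Psma4, all with overlapping groups. Among the beta subunits without catalytic activity, Psmb1 had 223 and 238 CPM against 248 and 247 CPM (0.10), and Psmb2 had 181 and 186 CPM against 194 and 193 CPM (0.08). Over the 14 standard core genes, 12 fold changes were above 0 and the median was 0.06.

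The cap base holds 6 ATPases that unfold the substrate. Psmc2 had 205 and 204 CPM in control mice and 230 and 211 CPM without Msi2 (log2 fold change 0.11), and Psmc3 had 255 and 257 CPM against 273 and 267 CPM (0.08). The ATPases ranged from -0.03 for Psmc6 to 0.11 for Psmc5. Both knock-out mice lay above both controls for Psmc1, Psmc2 and Psmc3, the groups overlapped for the other ATPases, and none passed a test. The base scaffold subunit Psmd2 had 462 and 446 CPM against 488 and 498 CPM (0.12), and Psmd1, the other scaffold, 266 and 263 CPM against 287 and 283 CPM (0.11). Neither passed a test, although the groups did not overlap.

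The lid removes ubiquitin chains from captured substrates. Its subunit Psmd13 had 190 and 177 CPM in control mice and 222 and 217 CPM without Msi2, with both knock-out mice above both controls. Its log2 fold change of 0.26 (SE 0.0706, 95% interval 0.06 to 0.45) had adjusted p = 0.335 by edgeR and 0.0462 by DESeq2. With any 1 library left out, DESeq2's log2 fold change was 0.21 to 0.31 and its call was lost (adjusted p from 0.266 to 1). Psmd6 had 119 and 118 CPM against 130 and 123 CPM (0.10). The other lid genes lay from -0.05 for Psmd7 to 0.10 for Psmd11, and Psmd14, the deubiquitinating enzyme of the lid, was at 0.01. Over the 17 cap genes, 15 were above 0 and the median was 0.07.

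The core assembly chaperones, which build the alpha ring, were all lower in both knock-out mice, an order that 24.6% of all tested genes showed. Psmg3 had 49.2 and 48.9 CPM in control mice and 44.1 and 40.8 CPM without Msi2 (log2 fold change -0.21, edgeR unadjusted p = 0.0705, adjusted p = 0.415). Psmg2 had 48.3 and 50.7 CPM against 45 and 42.2 CPM (-0.18). Psmg1 and Psmg4 were at -0.04 and -0.19. None of the 4 passed a test, and the shared direction was itself not tested. The cap assembly chaperones showed no such pattern: Psmd5 had 122 and 109 CPM against 129 and 117 CPM (0.09), Psmd9 had 55.2 and 48.2 CPM against 53.1 and 48.2 CPM (-0.03), and Psmd10 was at -0.01, all with overlapping groups.

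Activators open the core in place of the cap. Psme4, which encodes PA200, had 186 and 192 CPM in control mice and 161 and 169 CPM without Msi2, lower in both knock-out mice. Its log2 fold change was -0.19 (SE 0.0669, edgeR unadjusted p = 0.0404, adjusted p = 0.373; DESeq2 adjusted p = 0.192). Erlec1, which overlaps Psme4 in the RefSeq table, was at -0.17, and the strand setting of the counts was not given in the sources used here. The interferon-induced PA28 subunits were at 116 and 123 CPM against 112 and 116 CPM for Psme1 (-0.07) and at 82.6 and 77.4 CPM against 85.0 and 98.2 CPM for Psme2 (0.20, SE 0.0984). Psme3, the nuclear PA28 subunit, had 295 and 305 CPM against 315 and 303 CPM (0.04). The inhibitor Psmf1 had 55.0 and 56.2 CPM against 58.3 and 61.1 CPM (0.10). Psmc3ip had 23.3 and 25.6 CPM against 24.5 and 23.1 CPM (-0.04). None of these 5 passed a test.

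Levels of different genes were compared per kb of transcript. In the controls Psma7 was highest at a mean of 258 CPM per kb, followed by Psma6 and by Psmb4 at 243 CPM per kb. The standard catalytic subunits lay at 123 (Psmb5) to 196 CPM per kb (Psmb6). Of the inducible ones, Psmb8 was at 111 CPM per kb, close below Psmb5, and Psmb10 and Psmb9 were at 30.7 and 26.4 CPM per kb. Core assembly chaperones were at 39.9 to 57.9 CPM per kb, Psmf1 at 14.6, Psma8 at 4.85 and Psmb11 at 0.0323. The controls of Psmb5 (115 and 131 CPM per kb) and of Psmb8 (101 and 120 CPM per kb) overlapped, so their order lay within the spread of the mice, whereas Psma7 (258 in both) and Psmb4 (243 and 242) did not overlap. The order depends on the transcript chosen: with the union of exons Psma7 was at 199.9 CPM per kb.

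**Figure D4:**
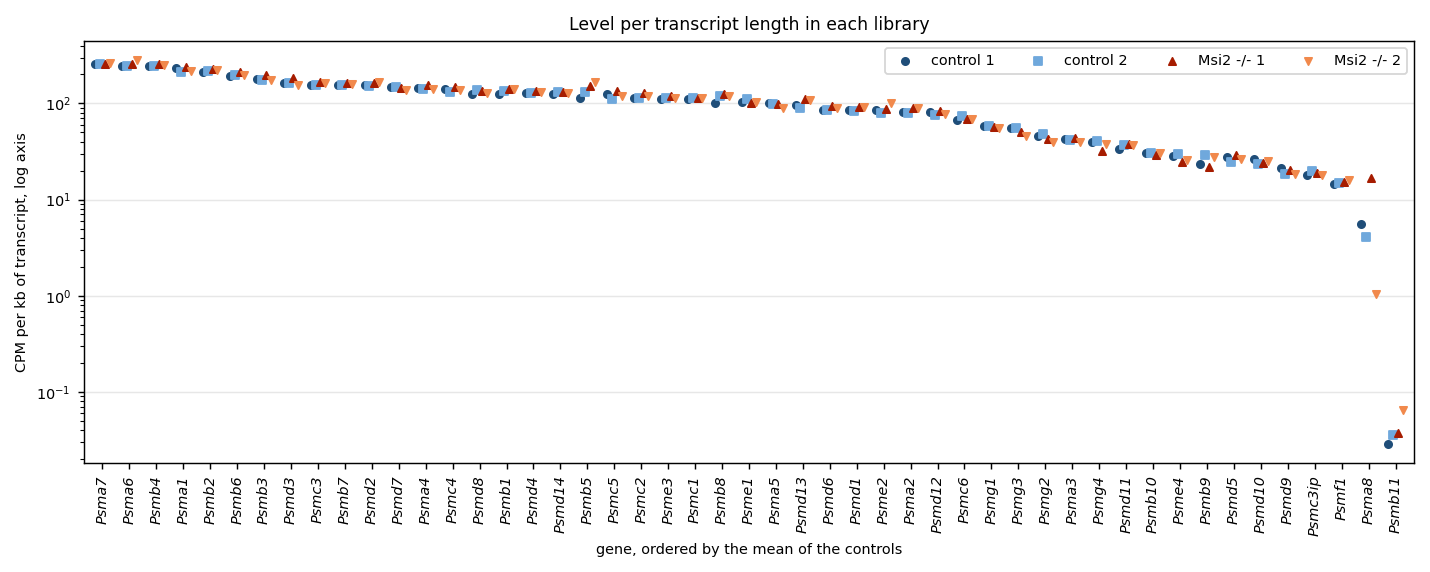
CPM per kb of transcript (vertical log axis) of all 49 members in each of the 4 libraries, ordered by the mean of the controls. Most points of a gene lie on each other, and Psma8 and Psmb11 stand lowest, at control means of 4.85 and 0.0323 CPM per kb.

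Other genes of the pathway were described from 4 lists. Of 20 proteasome partners with other symbols, 14 fold changes were above 0 (median 0.08), none passed an adjusted test, and 1 was higher at an unadjusted p under 0.05. This was Zfand2b, a proteasome-associated zinc finger gene, at 23.6 and 23.1 CPM in control mice and 29.2 and 29.7 CPM without Msi2 (log2 fold change 0.33, edgeR unadjusted p = 0.0268, DESeq2 adjusted p = 0.0558). Next came Nploc4, a cofactor of the Vcp segregase, at 197 and 182 CPM against 215 and 204 CPM (0.14). Of 6 ubiquitin and ubiquitin-activating enzyme genes, 5 were above 0 (median 0.09) and none passed a test. Rps27a, a ubiquitin fusion gene, had 681 CPM in both controls against 734 and 730 CPM (0.10).

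Of 12 regulators of proteasome genes, 7 were above 0 (median 0.04) and none passed a test. Nfyb, an NF-Y subunit, had 38.3 and 42.1 CPM in control mice and 45.8 CPM in both Msi2 -/- libraries (log2 fold change 0.19). Keap1, the adaptor that targets Nfe2l2 for destruction, had 119 and 120 CPM against 135 and 123 CPM (0.11). Of 8 antigen processing genes that interferon induces, 7 were above 0 (median 0.11) and edgeR called none after adjustment. Tapbp, the peptide-loading factor tapasin, had 110.1 and 113 CPM against 120.4 and 146 CPM (0.26).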

How the data were processed

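Raw counts per gene were deposited by the authors for 4 libraries. Per the submitters' processing notes, reads were handled with Trimmomatic, STAR and HTSeq on mm9, and DESeq is also named; versions, annotation and strand setting were not given in the sources used here. Closing rows that name no gene, 19.1% to 20.1% of each file, were left out.

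Counts were tested with edgeR 4.0.16 (R 4.3.3): filterByExpr by group (minimum count 10, minimum total 15), TMM scaling and a two-sided quasi-likelihood test with group as the only term, Benjamini-Hochberg adjusted over 13215 genes. CPM are relative to the counts of the filtered genes times the TMM factor. Standard errors came from the F statistic and 95% intervals from 4.29 degrees of freedom. DESeq2 1.42.0 and limma 3.58.1 (voom) were alternatives, with RLE and upper-quartile scaling, no filter, 1 CPM in 2 libraries, the likelihood ratio test, a replicate block and each library left out. Ratios were compared by exact permutation. The scripts were tested on simulated data. Replicates were separate libraries (chi-square per gene 59.2 in controls, 144 in Msi2 -/-).

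Values in every library are given for catalytic, inducible and tissue-restricted subunits, activators, the inhibitor, Psmc3ip, the 2 members of smallest p in each role class and those past a threshold, and for the 2 smallest p of each pathway list, except where a result is not reported here. Members and lists were chosen with earlier results of these data known. Transcript lengths are of the longest APPRIS principal transcript (GENCODE M21), and promoters and neighbours are from RefSeq (GRCm38.p6); no coordinates are given because the counts are on mm9.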

Additional observations from a re-analysis of the deposited data

How the results depend on the processing

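Every scaling, filter and model tried kept the members' median log2 fold change above 0, from 0.04 with upper-quartile scaling to 0.07, and from 0.02 to 0.08 with a library left out. DESeq2 called 2 members higher where edgeR called 0. At an unadjusted p under 0.05, edgeR's likelihood ratio test gave 1 member higher and 0 lower, and the fit with the replicate block gave 0 lower. Each fit with a library left out has 1 library in an arm. In DESeq2 fits of this kind, added after seeing the data, Psma8 changed direction. Its log2 fold change was -2.22 without Msi2 -/- replicate 1 and 1.80 without replicate 2. The replicate numbers share only a number (correlation of same-numbered deviations 0.03), so a call lost under the block does not show a weaker effect. Psma8 reversed with limma-voom (-0.11), with the replicate block (-0.16) and without Msi2 -/- replicate 1 (-2.22; range to 1.80). With a library left out, Psmb9 ranged from -0.28 to 0.10, Psmd9 from -0.12 to 0.0746 and Psmc3ip from -0.10 to 0.0349. The causes were not tested. A filter at 1 CPM in 2 libraries dropped Psmb11. With 2 mice a group, small differences such as those of most members could not be told from the spread between mice.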
